A study of Mus musculus with 4 samples.

Results

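Only 1 sample carried the label of CD137+ adipocyte progenitors given dexamethasone (DEX), yet its FPKM (sequenced fragments normalised for transcript length and library size) were deposited in 2 columns with different values. One column stands in the table that sets the CD137+ cells given DEX against the PDGFRα+ cells given DEX, and the other in the table that sets CD137+ cells given DEX against CD137+ cells given PBS. The sheet titles number them 2 and 1, and they are called library 2 and library 1 here. The genes compared were those listed under the same identifier in both tables, 13596 of the 15906 genes that appear anywhere in the series. Of these, 12362 reached 1 FPKM in the higher library and are called measured, and the remaining 1234 did not.

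White and beige adipocytes arise from fibroblast-like progenitors of the fat depots. In culture an adipogenic cocktail switches on the nuclear receptor PPARγ and C/EBPα, which then drive the genes of the lipid droplet, fatty acid uptake, triglyceride synthesis and secreted adipokines. Progenitors that do not differentiate keep dividing or spread on the plastic, form actin stress fibres and can take on features of myofibroblasts. Glucocorticoids act through the receptor encoded by Nr3c1 and are part of many adipogenic cocktails. Interferons, which are antiviral cytokines, act through transcription factors, IRF9 among them, on genes that carry an interferon-stimulated response element (ISRE) near their start.

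The series holds 4 samples of C57BL/6 mouse adipose progenitors, 1 per group: CD137+ cells with 1 µM DEX, PDGFRα+ cells with 1 µM DEX, CD137+ cells with PBS and PDGFRα+ cells with PBS. The cells of every group were isolated with magnetic beads (MACS) from the depots named SAT or VAT, grown, and given an adipogenic cocktail before DEX or PBS. The labels do not say which depot a sample came from, what the cocktail held, the animals' age, or whether cells of several animals were pooled. Nothing in them says whether both CD137+ DEX columns are separate cultures or the same culture sequenced again, and whether a column carries the wrong label is not known either. The values below are therefore those of columns with that label. No p-value was computed and no difference below has a replicate check.

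The mRNA of the sorting marker did not follow the label. Tnfrsf9, the gene of CD137, stood at 0.161 FPKM in library 2 and was not listed with library 1, against 4.81 and 1.62 FPKM in the PDGFRα+ DEX libraries 2 and 1. Homeobox and depot identity genes were mixed. Hoxc10 followed the label, at 16.6 and 15.5 FPKM in libraries 2 and 1, against 0.493 and 1.45 in those PDGFRα+ libraries. Shox2 did so at 13.6 and 12.7 FPKM, against 0.138 in PDGFRα+ DEX library 2. Hoxb9 did not, at 12.7 and 3.45 FPKM, against 1.72 and 19.5. Of 22 measured depot identity factors 18 were within 2-fold between libraries 2 and 1. In library 2, 4 (18.2%) were at least 2-fold lower, against 6.08% of all measured genes, and 0 were higher. Among these factors Tbx15 followed the label, at 36.2 and 70.3 FPKM, against 0.63 and 0.474. Osr1 did not, at 11.03 and 55.98 FPKM, against 56.6 and 4.77. Which cells each column came from was not tested. Across 12938 genes listed in all 6 columns, library 2 was closer to the PDGFRα+ DEX library 1 (Pearson r = 0.962, 678 genes at least 2-fold apart) than to library 1 of its own label (r = 0.931, 1135 genes apart). Library 1 in turn was closest to CD137+ PBS (r = 0.986, 116 genes apart). The PDGFRα+ DEX library 2 was closest to PDGFRα+ PBS (r = 0.994, 18 genes apart). Genes within a library are not independent replicates, so these values describe likeness only. The libraries are named by their labels throughout.

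The genes listed in only 1 of the tables were mostly low. The table of library 2 alone listed 1083 genes with a median of 0.41 FPKM in library 2, and that of library 1 alone listed 612 genes with a median of 0.457 FPKM in library 1. At 5 FPKM or more these were 5 genes with library 2 and 17 with library 1. Among the 17 were 13 major urinary protein (Mup) genes at 6.96 to 148 FPKM in library 1, lipocalins whose near-identical copies make each value uncertain. Summed FPKM was 431324 in library 2 and 449071 in library 1, and the 10 highest genes took 9.08% of it in library 2 and 11.8% in library 1. Mitochondrially encoded genes took 8.02% in library 2 and 8.62% in library 1. Sequencing depth is unknown.

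Most genes stood at similar levels in both libraries, and those that did not were more often lower in library 2. Levels were first scaled so that the median gene had the same level in both, which removed a shift of 0.11 log2 units. A difference is log2(FPKM + 1) in library 2 minus that in library 1, and a gene is called higher or lower when it was at least 2-fold apart on that scale. Among the measured genes 77.9% were within 1.5-fold. At least 2-fold higher in library 2 were 398 genes, or 3.22% of those measured, and at least 2-fold lower were 751, or 6.08%. Past 4-fold there were 53 higher and 238 lower genes, past 8-fold 6 and 98, and past 16-fold 0 and 36. The genes nearest the 2-fold bound show what it admits: Hells, a chromatin remodeller of replicating cells, was just inside at 11.6 in library 2 and 4.9 FPKM in library 1. The replication helicase subunit Mcm2 just outside stood at 18.5 FPKM in library 2, against 8.11 in library 1. On the lower side Rxra, the partner receptor of PPARγ, was just inside (15.1 FPKM in library 2 and 28.96 in library 1). The purine enzyme gene Xdh was just outside (70.99 FPKM in library 2 and 133 in library 1).

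**Figure D1:**
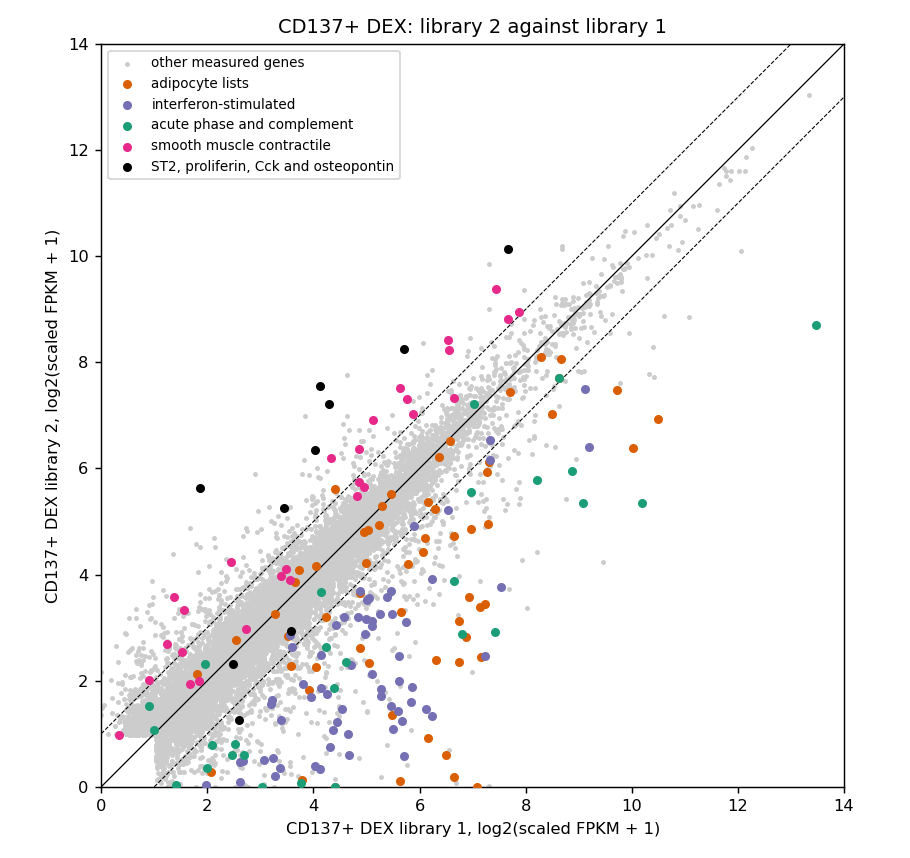
Level of each measured gene in CD137+ DEX library 2 (vertical) against library 1 (horizontal), as log2 of scaled FPKM plus 1; the solid line marks equal levels, the dashed lines 2-fold, and colours mark members of 5 sets of genes. Adipocyte, interferon-stimulated and acute phase genes lie mostly below the line, contractile genes above it, and 77.9% of genes lie within 1.5-fold.

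The widest gaps were on the lower side, and several of the genes there are known from fat cells. Adipoq, the gene of the hormone adiponectin (ENSMUSG00000022878, GRCm38 chromosome 16, 23146536 to 23158028), stood at 0.149 FPKM in library 2 and 95.7 in library 1, a difference of -6.45. The carbonic anhydrase Car3, abundant in mouse adipocytes, stood at 0.0483 FPKM in library 2 and 98.9 in library 1. Thrsp, which promotes fatty acid synthesis, was listed at 0 in library 2 and at 129.8 FPKM in library 1, and a listed 0 may be a failed estimate. Of the others, Scara5, a scavenger receptor that binds ferritin, stood at 0.65 in library 2 and 89.5 FPKM in library 1. Apoe, which carries lipids in lipoproteins, stood at 18.4 FPKM in library 2, against 674 in library 1. Clec3b, the plasminogen-binding tetranectin, stood at 0.143 FPKM in library 2 and 36.1 in library 1. Mup10, which had the widest gap at 0.0154 FPKM in library 2 and 152 in library 1, belongs to the near-identical Mup copies. All of these but Apoe stood under 1 FPKM in library 2.

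On the higher side the gaps were smaller. Grem1, an antagonist of bone morphogenetic proteins (ENSMUSG00000074934, GRCm38 chromosome 2, 113746164 to 113758646), had the widest gap, at 50.2 FPKM in library 2 and 2.53 in library 1, a difference of 3.77. The retinoic acid binding protein gene Crabp1 stood at 29.3 FPKM in library 2 and 2.1 in library 1. The extracellular chaperone gene Clu stood at 131 in library 2 and 12.8 FPKM in library 1. The epidermal growth factor receptor ligand gene Ereg stood at 20.6 FPKM in library 2, against 1.51 in library 1. Ltbp1, which holds latent TGF-β in the matrix, stood at 23.7 FPKM in library 2 and 2.34 in library 1. The protease inhibitor gene Serpinb2 stood at 22.9 in library 2 and 2.52 FPKM in library 1. All 6 stood above 1 FPKM in both libraries. The tenascin gene Tnc, the hormone gene Cck, the activin gene Inhba, the prolactin family gene Prl2c3 and the keratin gene Krt18 complete the upper end with Serinc2 (14.3 FPKM in library 2 and 0.896 in library 1), and the first 5 are given with their groups below.

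Beneath these genes lay whole programs, and each is described by how many measured members were apart and by the median difference of its measured members, set beside 3.22% higher, 6.08% lower and a median of 0 over all measured genes. Of the 53 lists with at least 5 measured members, 7 had 50% or more of their measured members lower in library 2 and 2 had 50% or more higher.

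**Figure D2:**
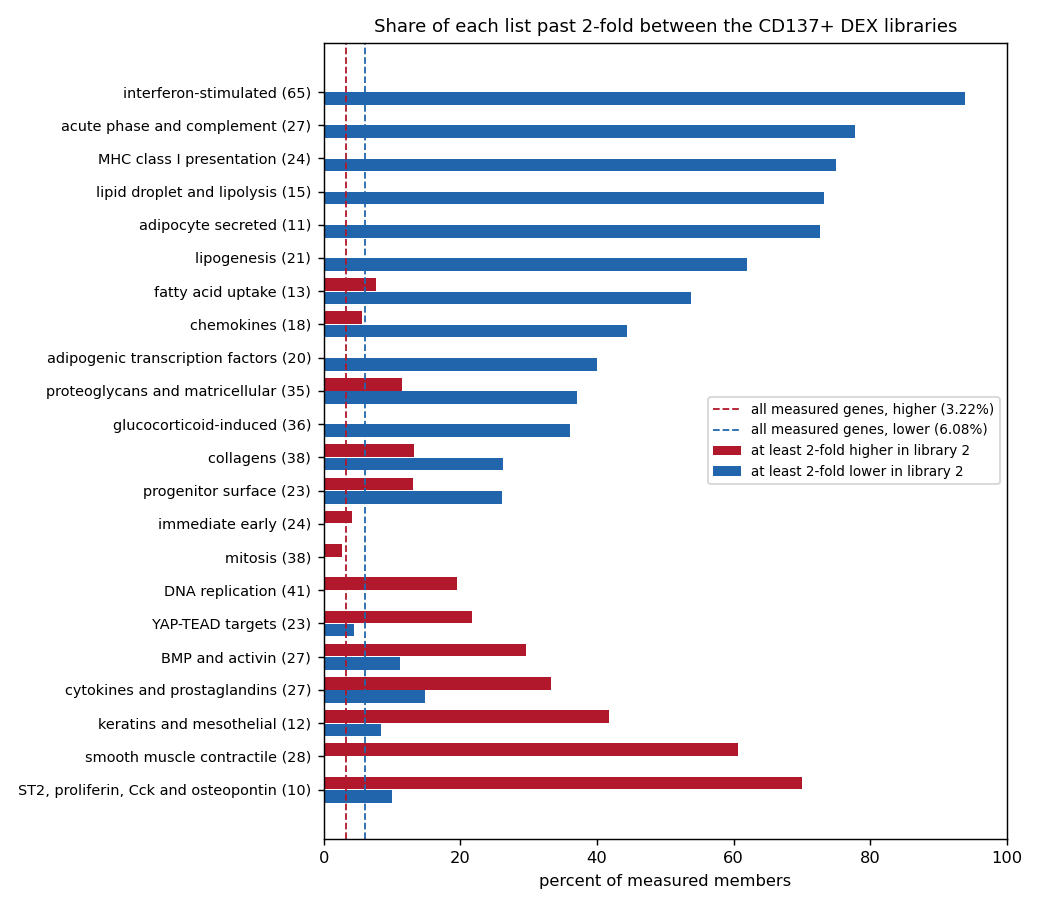
Percent of each list's measured members (numbers in brackets) that were at least 2-fold higher (red) or lower (blue) in library 2 than in library 1; dashed lines give the same percent over all 12362 measured genes. The interferon-stimulated list reached 93.8% lower and the smooth muscle contractile list 60.7% higher, against 6.08% and 3.22% over all genes.

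Adipocyte genes were lower in library 2, from the transcription factors to the secreted products. Of 20 measured adipogenic transcription factors 8 were lower, none was higher and the median was -0.67. Pparg (ENSMUSG00000000440, GRCm38 chromosome 6, 115360951 to 115490399), the receptor that commits cells to the adipocyte fate, stood at 14.2 FPKM in library 2 and 56.6 in library 1, a difference of -2.02. Cebpa, its partner in terminal differentiation, stood at 14.4 in library 2 and 83.8 FPKM in library 1. Mlxipl, the carbohydrate-sensing factor ChREBP, stood at 0.198 FPKM in library 2, against 9.58 in library 1. The liver X receptor gene Nr1h3 stood at 2.58 FPKM in library 2 and 15.3 in library 1. Among the members that differed least, Cebpb, which acts upstream of Pparg, stood at 86.1 in library 2 and 78.6 FPKM in library 1. Ebf1, an early B cell factor that also acts in adipogenesis, stood at 24.6 FPKM in library 2, against 29.8 in library 1. Both were named for their small differences and the factors before them for their large ones. Early and late factors can therefore not be contrasted from these names.

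Of 15 measured genes of the lipid droplet and lipolysis 11 were lower, none was higher and the median was -1.79. Of those 15, 12 stood at 1 FPKM or more in both libraries, and 8 of the 12 were lower. The droplet coat protein of mature adipocytes, Plin1, stood at 0.925 FPKM in library 2 and 68.1 in library 1. The droplet fusion protein gene Cidec stood at 0.0967 in library 2 and 12.3 FPKM in library 1. The triglyceride lipase gene Pnpla2 stood at 7.96 FPKM in library 2, against 102 in library 1. The hormone-sensitive lipase gene Lipe stood at 1.6 FPKM in library 2 and 42.3 in library 1. Gpd1, which makes the glycerol backbone of triglycerides, stood at 0.524 in library 2 and 86.1 FPKM in library 1. The droplet proteins found in most cells were level, Plin2 standing at 178 FPKM in library 2, against 200.3 in library 1. Plin3 stood at 28.8 FPKM in library 2 and 30.6 in library 1.

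Of 13 measured fatty acid uptake genes 7 were lower and 1 was higher, with a median of -1.18. The fatty acid transporter Cd36 stood at 4.59 in library 2 and 136 FPKM in library 1. The fatty acid carrier Fabp4 stood at 126 FPKM in library 2, against 1389 in library 1. The acyl-CoA synthetase gene Acsl1 stood at 4.28 FPKM in library 2 and 103 in library 1. The member that was higher was another acyl-CoA synthetase gene, Acsl4, which prefers arachidonic acid, at 49.9 in library 2 and 19.6 FPKM in library 1. Of 21 measured lipogenesis genes 13 were lower, none was higher and the median was -1.34. Scd1, a desaturase, stood at 86.2 FPKM in library 2, against 1008 in library 1. The fatty acid synthase gene Fasn stood at 31 FPKM in library 2 and 149 in library 1. Dgat2, which completes triglycerides, stood at 10.2 in library 2 and 144 FPKM in library 1. The elongase gene Elovl5 was level at 39.5 FPKM in library 2 and 37.02 in library 1, and so was the desaturase gene Fads1 at 46.3 FPKM in library 2 and 41.6 in library 1. The enzymes that burn fatty acids followed less far, with 3 of 23 lower and a median of -0.64, among them the dehydrogenase gene Acadm at 21.3 in library 2 and 52.9 FPKM in library 1. Cpt1a, which admits fatty acids to the mitochondrion, stood at 45.1 FPKM in library 2, against 23.3 in library 1.

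Of 11 measured adipocyte secreted proteins 8 were lower, none was higher and the median was -2.25. Besides Adipoq, the resistin gene Retn stood at 0.0888 FPKM in library 2 and 46.5 in library 1. The angiotensinogen gene Agt stood at 6.28 in library 2 and 112 FPKM in library 1. The adipsin gene Cfd was listed at 0 in library 2 and stood at 19.6 FPKM in library 1. Angptl4, an inhibitor of lipoprotein lipase, was level at 93.98 FPKM in library 2, against 91.02 in library 1. In the insulin pathway 5 of 20 members were lower and 1 higher, led by the insulin-responsive glucose transporter Slc2a4 (GLUT4) at 0.225 FPKM in library 2 and 14.1 in library 1. The kinase gene Akt1 was level at 81.7 in library 2 and 72.98 FPKM in library 1. In bulk RNA such as this, fewer fat-laden cells and less of these RNAs per cell cannot be told apart.

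Marker lists of whole cell types were summed as well. The adipocyte markers summed to 127 FPKM in library 2 and 1664 FPKM in library 1, with 1 of 5 listed markers at 1 FPKM or more in library 2 (Fabp4) and 5 of 5 in library 1. The adipose progenitor or fibroblast markers summed to 3124 FPKM in library 2 and 6175 in library 1, with 8 of 10 at 1 FPKM or more in library 2 and 9 in library 1. The mural or smooth muscle markers, led by Acta2, summed to 1025 FPKM in library 2 and 265 in library 1, with 6 of 7 at 1 FPKM or more in library 2 and 5 in library 1. Most of that sum came from Acta2 and Tagln (313 FPKM in library 2 and 90.1 in library 1), which are also contractile genes. In a separate mural list of 8 measured genes 2 (25.0%) were higher and 1 (12.5%) lower, with a median of 0.004. Other cell types were low in both. Endothelial markers summed to 25.7 FPKM in library 2 and 8.96 in library 1, and macrophage or monocyte markers to 22.1 in library 2 and 13.5 in library 1. Mesothelial markers summed to 22.5 FPKM in library 2 and 6.36 in library 1, and epithelial markers to 9.1 in library 2 and 1.06 in library 1. The leukocyte gene Ptprc, the macrophage gene Adgre1, the mesothelial genes Msln and Wt1 and all lymphocyte and erythroid markers were not listed. Schwann cell markers summed to 2.05 FPKM in library 2 and 5.91 in library 1, and skeletal muscle markers to 14.7 in library 2 and 3.36 in library 1. Only 2 of 6 skeletal muscle markers were listed, Des and Acta1, and Des is also a mural marker. Of 7 mesothelial markers 2 were listed, Krt19 and Krt8. The part of other cell types in the differences was not tested. Of the genes named here, Cd34, Cd81, Cebpb, Cfb, Chrd, Cxcl10, Hoxc10, Hsd11b1, Igfbp7, Irf7, Irf9, Malat1, Pdgfra, Psmb9, Shox2, Srf, Sult1a1 and Tyk2 share a stretch of genome with another listed gene. Tagln does so as well. The counting is not stated to use strand, so some reads of all these genes may come from a neighbour.

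Of the 12 beige precursor markers 8 were listed and measured, of which 2 were lower in library 2 and 6 were within 2-fold. Slc36a2, an amino acid transporter, stood at 0.569 FPKM in library 2, against 17.1 in library 1. Ear2, a ribonuclease, stood at 0.4 FPKM in library 2 and 10.4 in library 1. The tetraspanin gene Cd81 was level at 214 FPKM in library 2 and 199 in library 1. Klhl13, a ubiquitin ligase adaptor gene, was level at 14.1 FPKM in library 2, against 14.2 in library 1. So was the homeobox gene Shox2 at 13.6 FPKM in library 2 and 12.7 in library 1. Ucp1, the uncoupling protein of thermogenic adipocytes, was not listed. Prdm16, a regulator of the brown and beige fate, stood at 1.25 in library 2 and 1.39 FPKM in library 1. Pdgfra was detected in both CD137+ DEX libraries, at 67.7 FPKM in library 2 and 154 in library 1, a difference of -1.28.

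Although both libraries were labelled DEX, genes that glucocorticoids induce leaned to lower levels in library 2. Of 36 measured members 13 were lower, none was higher and the median was -0.71. Sult1a1, a sulfotransferase, stood at 0.927 FPKM in library 2 and 17.1 in library 1. Hsd11b1, which regenerates active glucocorticoid in fat, stood at 6.66 in library 2 and 45.01 FPKM in library 1. The glutamine synthetase gene Glul stood at 54.3 FPKM in library 2, against 224 in library 1. Klf15, a factor that glucocorticoids induce, stood at 2.8 FPKM in library 2 and 16.99 in library 1. The serpin gene Serpina3n stood at 481 in library 2 and 2083 FPKM in library 1. Classic targets of the receptor were split between lower and within 2-fold. Zbtb16, a zinc finger factor, was lower at 5.6 FPKM in library 2 and 19.2 in library 1, a difference of -1.71. Sgk1, a kinase gene, leaned the other way at 188.6 FPKM in library 2, against 117 in library 1, a difference of 0.58. Fkbp5, whose protein tunes the receptor's affinity for hormone, stood at 47.7 FPKM in library 2 and 66.2 in library 1, a difference of -0.57. Tsc22d3, or GILZ, an anti-inflammatory target, stood at 28.7 FPKM in library 2 and 38.5 in library 1, a difference of -0.52. In CD137+ PBS, Zbtb16 stood at 20.9, Sgk1 at 67.8, Fkbp5 at 68.1 and Tsc22d3 at 76.1 FPKM. Of these classic targets only Sgk1 was higher in library 1 than in CD137+ PBS. They do not stand for the whole list, whose other members went both ways. Dusp1 stood at 135 FPKM in library 1 and 39.25 in CD137+ PBS, and Glul at 224 in library 1 and 263 in CD137+ PBS. A response to DEX in either library was not tested. Nr3c1, the receptor (ENSMUSG00000024431), stood at 15.1 in library 2 and 24.2 FPKM in library 1. Agt, Klf15 and others of the list are adipocyte genes as well, so the list is not independent of the adipocyte groups.

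Of the 53 lists, the interferon-stimulated genes had the largest share of members apart. Of 65 measured interferon-stimulated genes 61 were lower in library 2 and none higher, and all 65 had a difference below 0, with a median of -2.40. Among the 52 members at 1 FPKM or more in both libraries 48 were lower. Isg15, a ubiquitin-like modifier, stood at 4.69 FPKM in library 2 and 144 in library 1, a difference of -4.76. Ifit1, which binds viral RNA, stood at 1.75 FPKM in library 2 and 45.8 in library 1. Its relative Ifit3 stood at 1.59 FPKM in library 2 and 71.2 in library 1, and a near-identical copy makes that value uncertain. Ifi27l2a, an interferon-inducible gene of unsettled function, stood at 0.512 FPKM in library 2, against 49.3 in library 1. The immunity-related GTPase gene Iigp1 stood at 1.82 FPKM in library 2 and 66.3 in library 1. The guanylate-binding protein gene Gbp3 stood at 2.1 in library 2 and 54.4 FPKM in library 1. The 4 members within 2-fold were Samhd1, which degrades nucleotides (30.3 FPKM in library 2 and 56.4 in library 1), the transcription factor gene Irf1 (5.4 FPKM in library 2 and 10.7 in library 1), Shisa5 (94.7 FPKM in library 2 and 153 in library 1) and Ifit2 (6.52 FPKM in library 2 and 10.3 in library 1).

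The start regions of 4 members with wide gaps are shown because they carry an element that interferons act through. Phf11d, with a difference of -4.41, has a window with 0 matches. Each window is 250 bases before to 50 bases after the gene's start as RefSeq places it on GRCm38.p6, read 5′ to 3′ on the gene's strand. Capitals mark the ISRE core, searched on both strands as GAAA, any 2 bases and GAAA again, which on the other strand reads TTTC, any 2 bases and TTTC, with overlapping matches joined. Isg15 has 3 matches (chr4:156200769-156201068, minus strand), Ifit3 has 2 (chr19:34583279-34583578, plus strand), Ifit1 has 2 (chr19:34640639-34640938, plus strand) and Gbp3 has 2 (chr3:142559794-142560093, plus strand).
Isg15: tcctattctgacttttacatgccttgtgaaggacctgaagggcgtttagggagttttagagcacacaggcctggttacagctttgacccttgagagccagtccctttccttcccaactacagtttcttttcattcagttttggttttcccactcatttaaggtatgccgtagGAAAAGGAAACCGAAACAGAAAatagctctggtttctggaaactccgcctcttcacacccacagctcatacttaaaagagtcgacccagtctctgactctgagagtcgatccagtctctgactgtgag
Ifit3: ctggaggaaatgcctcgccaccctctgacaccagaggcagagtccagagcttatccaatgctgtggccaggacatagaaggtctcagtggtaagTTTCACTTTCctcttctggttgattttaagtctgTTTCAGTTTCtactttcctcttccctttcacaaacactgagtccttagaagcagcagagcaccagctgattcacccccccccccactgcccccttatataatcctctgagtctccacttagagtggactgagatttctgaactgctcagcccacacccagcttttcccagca
Ifit1: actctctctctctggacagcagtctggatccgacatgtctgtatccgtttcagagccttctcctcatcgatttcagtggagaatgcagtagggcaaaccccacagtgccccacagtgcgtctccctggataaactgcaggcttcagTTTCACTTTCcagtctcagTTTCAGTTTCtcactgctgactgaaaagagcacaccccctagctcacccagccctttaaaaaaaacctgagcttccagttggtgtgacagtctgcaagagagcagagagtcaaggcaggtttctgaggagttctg
Gbp3: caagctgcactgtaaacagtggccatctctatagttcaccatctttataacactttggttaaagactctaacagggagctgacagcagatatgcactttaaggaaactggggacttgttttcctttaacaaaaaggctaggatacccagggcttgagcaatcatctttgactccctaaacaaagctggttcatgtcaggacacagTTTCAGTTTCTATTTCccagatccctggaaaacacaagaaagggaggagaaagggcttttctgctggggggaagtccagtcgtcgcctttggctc

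Such a core was present in the windows of 24 of the 50 interferon-stimulated members found in the promoter table (48.0%), against 345 of 9180 measured genes (3.76%). Among all genes lower in library 2 it was present in 64 of 527 (12.1%), and among genes higher in library 2 in 11 of 286 (3.85%). The 527 include members of the interferon-stimulated and MHC class I lists. Outside those lists it was present in 36 of 469 lower genes (7.68%). The 24 list members with a core had a median difference of -2.58 with 23 lower, and the 26 without one a median of -2.04, also with 23 lower. A second motif (GAS), TTC, any 3 bases and GAA, was present in 13 of the 50 members (26.0%), against 8.18% of measured genes. A match describes the letters of a window and says nothing of whether a factor binds there.

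Several genes that carry the interferon signal were lower too, and others were level. Of 27 measured receptors and signalling genes 7 were lower and 1 higher, with a median of -0.36. The signal transducer gene Stat2 stood at 4.08 in library 2 and 24.1 FPKM in library 1. Irf9, which joins it on the ISRE, stood at 8.21 FPKM in library 2, against 29.5 in library 1. Irf7, which amplifies the response, stood at 1.94 FPKM in library 2 and 41.7 in library 1. These 3 are themselves induced by interferon. The kinase gene Ikbke stood at 7.11 FPKM in library 2 and 17.9 in library 1. Tlr3, a sensor of double-stranded RNA, stood at 3.05 FPKM in library 2, against 9.07 in library 1. Ifngr1, a receptor subunit gene for interferon-γ, stood at 31.3 FPKM in library 2 and 82.7 in library 1. The receptor kinase gene Tyk2 was level at 5.65 in library 2 and 5.59 FPKM in library 1. So was the kinase gene Jak2 at 23.3 FPKM in library 2, against 22.3 in library 1. The adaptor gene Tmem173 (STING) stood at 21.8 FPKM in library 2 and 21.3 in library 1 and the DNA sensor gene Mb21d1 (cGAS) at 2.01 in library 2 and 1.81 FPKM in library 1. The interferon-β gene Ifnb1 was not listed.

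Antigen presentation by MHC class I, which interferons also raise, followed. Of 24 measured members 18 were lower, none was higher and the median was -1.58. The class I heavy chain gene H2-K1 stood at 56.6 FPKM in library 2, against 291 in library 1. H2-D1, of the same kind, stood at 49.4 FPKM in library 2 and 217 in library 1. The immunoproteasome subunit gene Psmb9 stood at 0.475 in library 2 and 8.09 FPKM in library 1. Nlrc5, the transactivator of class I genes, stood at 0.841 FPKM in library 2, against 6.45 in library 1. The general folding helpers of the endoplasmic reticulum were within 2-fold, the calnexin gene Canx standing at 234 FPKM in library 2 and 163 in library 1 and the calreticulin gene Calr at 589 in library 2 and 457 FPKM in library 1. The H2-Q genes in the list are near-identical copies whose values are uncertain.

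Of 18 measured chemokines and their decoy receptors 8 were lower and 1 higher. Cxcl13, which draws B cells, stood at 0.341 FPKM in library 2, against 51.4 in library 1. The interferon-induced T cell attractant Cxcl10 stood at 0.968 FPKM in library 2 and 16.8 in library 1. The stromal chemokine Cxcl12 stood at 74.2 in library 2 and 477 FPKM in library 1. The eosinophil attractant Ccl11 stood at 10.7 FPKM in library 2, against 64.98 in library 1. The monocyte attractant Ccl7 was level at 251 FPKM in library 2 and 254 in library 1. The neutrophil attractant Cxcl2 stood at 4.92 in library 2 and 4.77 FPKM in library 1. Cxcl14 was the member that was higher, at 11.7 FPKM in library 2, against 3.52 in library 1.

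Acute phase and complement genes summed to 1113 FPKM in library 2 and 14413 FPKM in library 1. Of 27 measured members 21 were lower, none was higher and the median was -2.09, and of the 16 at 1 FPKM or more in both libraries 12 were lower. Saa3, the serum amyloid A made by mouse fat, stood at 434 FPKM in library 2 and 10892 in library 1, which is 0.101% of summed FPKM in library 2 and 2.43% in library 1. The haptoglobin gene Hp stood at 40.98 in library 2 and 1126 FPKM in library 1. The central complement component C3 stood at 41.4 FPKM in library 2, against 522 in library 1. The alternative pathway factor Cfb stood at 6.76 FPKM in library 2 and 165 in library 1. The tissue factor gene F3, which starts coagulation, was level at 153 in library 2 and 125 FPKM in library 1. The complement shield gene Cd55 was within 2-fold at 12.1 FPKM in library 2, against 15.96 in library 1.

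**Figure D3:**
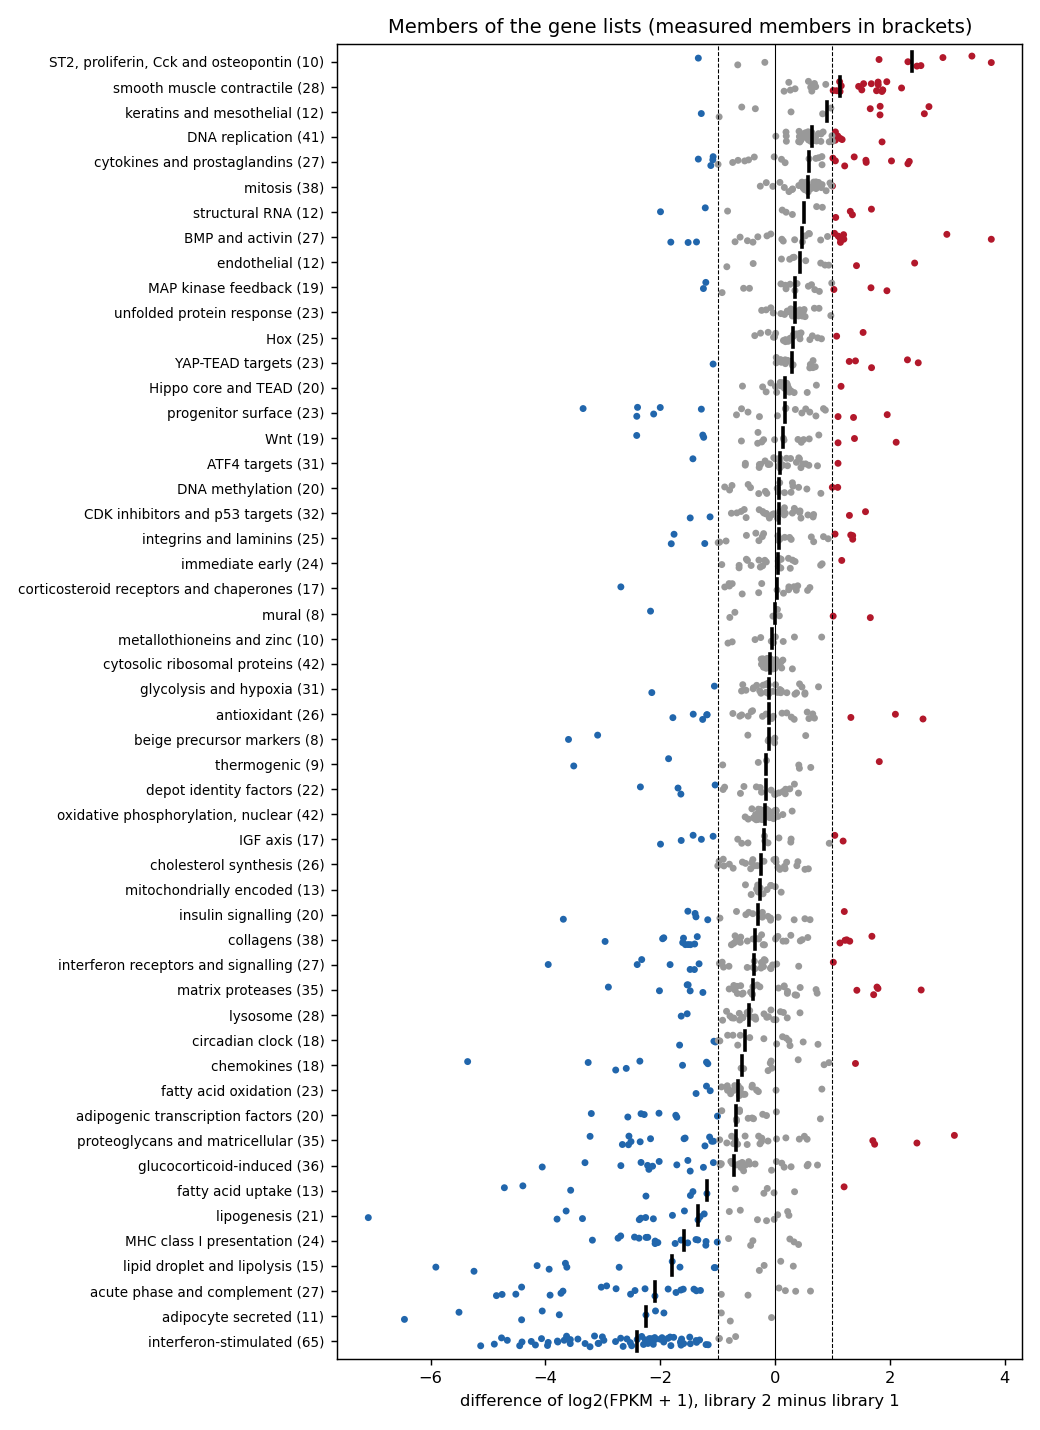
Difference of every measured member of the lists with at least 8 measured members (numbers in brackets), library 2 minus library 1 in log2(FPKM + 1); red and blue points are at least 2-fold higher and lower, bars are list medians and dashed lines mark 2-fold. All 65 interferon-stimulated genes lie left of 0 and all 28 contractile genes right of it, while the ribosomal and oxidative phosphorylation genes crowd around 0.

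Progenitor surface genes split between the libraries. Of 23 measured members 6 were lower and 3 higher. The stem cell antigen gene Ly6a (Sca-1) stood at 324 FPKM in library 2 and 1305 in library 1. Ly6c1 stood at 43.5 in library 2 and 419 FPKM in library 1. Cd34, a surface marker of adipose progenitors, stood at 6.2 FPKM in library 2, against 34.7 in library 1. On the other side, Cd24a, which marks early adipose progenitors, stood at 66.1 FPKM in library 2 and 15.1 in library 1. The hyaluronan receptor gene Cd44 stood at 111 in library 2 and 39.4 FPKM in library 1. Pdgfrb, a receptor of stromal and mural cells, was level at 94.4 FPKM in library 2, against 85.1 in library 1.

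The matrix also differed in kind, with the proteoglycans and loose-tissue proteins on the lower side. Of 35 measured proteoglycan and matricellular genes 13 were lower and 4 higher. The small proteoglycan gene Lum stood at 3.07 FPKM in library 2 and 34.6 in library 1. The dermatopontin gene Dpt stood at 40.7 in library 2 and 225 FPKM in library 1. The elastin gene Eln stood at 10.3 FPKM in library 2, against 59.05 in library 1. Bgn, another small proteoglycan gene, was level at 2038 FPKM in library 2 and 1858 in library 1. Tnc, the tenascin of wounds and embryos (ENSMUSG00000028364, GRCm38 chromosome 4, 63959785 to 64047015), stood at 224 FPKM in library 2 and 23.03 in library 1, a difference of 3.13. The osteopontin gene Spp1 stood at 1171 FPKM in library 2, against 195 in library 1. Of 38 measured collagens and collagen-modifying enzymes 10 were lower and 5 higher, with the fibrillar Col3a1 at 1138 FPKM in library 2 and 4108 in library 1. The pericellular Col6a2 stood at 80.2 in library 2 and 221 FPKM in library 1. The anchoring Col7a1 stood at 8.95 FPKM in library 2, against 1.91 in library 1. The crosslinking enzyme gene Lox was level at 1936 FPKM in library 2 and 1631 in library 1. Of 35 measured matrix proteases and inhibitors 6 were lower and 5 higher. The urokinase receptor gene Plaur stood at 16.1 FPKM in library 2, against 3.63 in library 1. The versican-cleaving protease gene Adamts5 stood at 23.5 FPKM in library 2 and 90.9 in library 1.

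The program that stood out on the higher side was that of the smooth muscle contractile genes. Of 28 measured smooth muscle contractile genes 17 were higher and none lower, all 28 had a difference above 0, and the median was 1.13. The 26 members at 1 FPKM or more in both libraries held 16 of those. The smooth muscle actin gene Acta2 stood at 692 FPKM in library 2 and 166 in library 1, a difference of 1.95. The calponin gene Cnn1 stood at 11.3 FPKM in library 2, against 1.53 in library 1. Tpm1, a tropomyosin gene whose protein wraps actin filaments, stood at 354 FPKM in library 2 and 88.9 in library 1. Tpm2, another tropomyosin gene, stood at 188 in library 2 and 46.8 FPKM in library 1. Myl9, a regulatory light chain of myosin, stood at 75.2 FPKM in library 2, against 18.5 in library 1. The factors that switch these genes on were within 2-fold, Srf standing at 14.5 FPKM in library 2 and 10.3 in library 1 and its cofactor Mkl2 at 7.14 in library 2 and 5.46 FPKM in library 1. Serum response factor, encoded by Srf, acts through the CArG box. Among the 8 list members with the widest gaps, only Myl9 and the calponin gene Cnn2 gave a window with one. Acta2, Cnn1, Tpm1 and Tpm2 did not, for lack of a match or of a window. The 2 windows are given, with the box in capitals: Myl9 (chr2:156775214-156775513, plus strand) and Cnn2 (chr10:79988350-79988649, plus strand).
Myl9: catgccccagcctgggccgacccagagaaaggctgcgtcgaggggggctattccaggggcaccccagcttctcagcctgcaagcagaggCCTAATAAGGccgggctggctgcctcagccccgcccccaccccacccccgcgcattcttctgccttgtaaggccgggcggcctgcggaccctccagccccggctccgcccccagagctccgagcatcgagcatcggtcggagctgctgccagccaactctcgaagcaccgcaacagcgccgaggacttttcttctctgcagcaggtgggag
Cnn2: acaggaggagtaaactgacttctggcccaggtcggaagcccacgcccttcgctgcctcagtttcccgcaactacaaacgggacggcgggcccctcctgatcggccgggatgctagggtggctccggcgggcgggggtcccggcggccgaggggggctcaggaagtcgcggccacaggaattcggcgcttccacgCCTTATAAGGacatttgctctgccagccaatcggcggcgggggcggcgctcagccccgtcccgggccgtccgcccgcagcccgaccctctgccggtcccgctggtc

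A CArG box, searched on both strands, was present in the RefSeq windows of 5 of 22 contractile members (22.7%), in 13 of 286 genes higher in library 2 (4.55%), in 7 of 527 lower genes (1.33%) and in 140 of 9180 measured genes (1.53%). Cnn2 stood at 125 FPKM in library 2, against 32.6 in library 1. No match in a window says only that the letters are absent there.

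Targets of YAP and TEAD, the factors at the end of the Hippo pathway that respond to cell spreading, differed in part. Of 23 measured members 5 were higher and 1 lower, with a median of 0.30. The connective tissue growth factor gene Ctgf stood at 341 FPKM in library 2 and 63.2 in library 1. The muscle stress gene Ankrd1 stood at 10.3 in library 2 and 0.903 FPKM in library 1. The LIM protein gene Ajuba stood at 11.7 FPKM in library 2, against 3.52 in library 1. Cyr61, an equally well-known target, was level at 348 FPKM in library 2 and 319 in library 1. So was Amotl2, a feedback regulator of the pathway, at 92.7 in library 2 and 84.7 FPKM in library 1. Tead1 itself (ENSMUSG00000055320, GRCm38 chromosome 7, 112679318 to 112906807) stood at 42.6 FPKM in library 2 and 23.6 in library 1, a difference of 0.72 that stayed short of 2-fold. Of the 20 measured Hippo core genes 1 was higher and none lower.

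Some genes of secreted signals were higher as well. Of 27 measured cytokine and prostaglandin genes 9 were higher and 4 lower. Ptgs2, a cyclooxygenase gene whose enzyme starts prostaglandin synthesis, stood at 73.3 FPKM in library 2 and 12.7 in library 1. The other cyclooxygenase gene, Ptgs1, stood at 94.1 in library 2 and 28.5 FPKM in library 1. Il11, of the interleukin 6 family, stood at 5.33 FPKM in library 2, against 0.483 in library 1. Lif, of the same family, stood at 13.9 FPKM in library 2 and 3.63 in library 1. Il6 itself was level at 15.7 in library 2 and 14.7 FPKM in library 1. The interleukin 33 receptor gene Il1rl1 (ST2) stood at 83.5 FPKM in library 2, against 14.8 in library 1. The gene of its ligand, Il33, was on the other side at 1.45 FPKM in library 2 and 4.86 in library 1. The receptor and the ligand thus differed in opposite directions.

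Il1rl1 also belongs to a set of 10 measured genes grouped with it as ST2, proliferin, Cck and osteopontin, of which 7 were higher and 1 lower, with a median of 2.40. Those members were put together because earlier results of these data showed them apart, so their count is a description only. The cholecystokinin gene Cck stood at 195 in library 2 and 15.9 FPKM in library 1. The proliferin gene Prl2c2, of the prolactin family, stood at 315 FPKM in library 2, against 49.4 in library 1. Prl2c3 stood at 153 FPKM in library 2 and 17.8 in library 1, and the near identity of the 2 copies makes the split between them uncertain. The stanniocalcin gene Stc1 was level at 4.13 FPKM in library 2, against 4.46 in library 1.

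Of 27 measured genes of the BMP and activin pathways 8 were higher and 3 lower. Besides Grem1, the activin subunit gene Inhba stood at 60.8 FPKM in library 2 and 6.24 in library 1. Inhbb, another subunit gene, stood at 25.95 in library 2 and 9.95 FPKM in library 1. Fstl3, which binds activin, stood at 33.6 FPKM in library 2, against 13.1 in library 1. The BMP antagonist gene Chrd was on the other side at 1.8 FPKM in library 2 and 5.82 in library 1, and so was its relative Chrdl1 at 0.249 FPKM in library 2, against 2.44 in library 1. The BMP-related ligand gene Gdf10 stood at 27.3 FPKM in library 2 and 91.8 in library 1. The receptor gene Bmpr2 was level at 18.3 FPKM in library 2 and 15.6 in library 1, as was the target gene Id1 at 69.3 FPKM in library 2, against 58.1 in library 1.

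Keratins of simple epithelia, which stressed or cultured stromal cells can also express, were low in both libraries and in part higher in library 2. Of 12 measured keratin and mesothelial genes 5 were higher and 1 lower. Krt18 stood at 9.48 FPKM in library 2 and 0.558 in library 1. Krt8, with which it forms filaments, stood at 11.3 in library 2 and 0.925 FPKM in library 1. The epithelial cadherin gene Cdh1 stood at 3.16 FPKM in library 2, against 0.131 in library 1. Epcam, an epithelial surface gene of the marker list, stood at 5 FPKM in library 2 and 0.412 FPKM in library 1. Endothelial genes were likewise low and 2 of 12 were higher. Emcn, an endothelial mucin gene, stood at 9.13 FPKM in library 2 and 0.785 in library 1. The vascular cadherin gene Cdh5 stood at 7.18 in library 2 and 1.89 FPKM in library 1. Whether a few cells of these types were present in library 2 was not tested.

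Genes of DNA replication and mitosis leaned to library 2 without passing 2-fold for the most part. Of 41 measured replication genes 8 were higher and none lower, all 41 had a difference above 0, and the median was 0.65. Rrm2, the ribonucleotide reductase subunit that makes DNA precursors, stood at 109 FPKM in library 2, against 27.04 in library 1. The replication licensing gene Cdc6 stood at 4.53 FPKM in library 2 and 1.53 in library 1. The maintenance methylation factor Uhrf1 stood at 17.1 in library 2 and 6.93 FPKM in library 1. Of 38 mitosis genes 1 was higher, the kinase gene Aurka at 20.4 FPKM in library 2 and 8.97 in library 1, none was lower, 35 had a difference above 0, and the median was 0.57. Top2a, which untangles chromosomes, stood at 53.3 FPKM in library 2 and 25.03 in library 1. The mitotic cyclin gene Ccnb2 was level at 21.6 in library 2 and 20.7 FPKM in library 1.

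Detoxification genes differed in both directions. Of 26 measured antioxidant genes 3 were higher and 5 lower. The quinone reductase gene Nqo1 stood at 60.4 FPKM in library 2, against 12.4 in library 1. The glutathione transferase gene Gsta4 stood at 25.9 FPKM in library 2 and 3.22 in library 1. Gclc, which makes glutathione, stood at 41.2 in library 2 and 14.7 FPKM in library 1. All 3 are known targets of the oxidative stress factor NRF2. The catalase gene Cat was on the lower side at 34.2 FPKM in library 2, against 73.6 in library 1. So was the mitochondrial superoxide dismutase gene Sod2 at 38.7 FPKM in library 2 and 98.2 in library 1. Gpx4, which protects membranes from lipid peroxides, was level at 130.4 in library 2 and 126 FPKM in library 1.

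Many basic programs had few members 2-fold apart, or none. None of 42 cytosolic ribosomal protein genes, 42 nuclear-encoded oxidative phosphorylation genes, 13 mitochondrially encoded genes, 26 cholesterol synthesis genes, 23 unfolded protein response genes or 10 metallothionein and zinc transporter genes was 2-fold apart, although 9.29% of all measured genes were apart. In the smaller of these lists, none apart is near the share over all genes and is no result about them. Some leaned to 1 side within 2-fold. Of the unfolded protein response genes 19 of 23 had a difference above 0 (median 0.348). Below 0 were 36 of 42 nuclear-encoded oxidative phosphorylation genes (median -0.174) and 11 of 13 mitochondrially encoded genes (median -0.257). The ribosomal gene Rps13 stood at 442 FPKM in library 2, against 409.9 in library 1. The respiratory subunit gene Ndufa4 stood at 134 FPKM in library 2 and 124 in library 1. The sterol synthesis gene Hmgcs1 stood at 68.2 in library 2 and 64.1 FPKM in library 1. In glycolysis and the hypoxia response 2 of 31 members were lower and none higher, led by the vasodilator peptide gene Adm at 43.5 FPKM in library 2, against 182 in library 1. The glycolytic enzyme gene Gpi1 was level at 207 FPKM in library 2 and 187 in library 1. Of 31 ATF4 targets 1 was higher and 1 lower. Of 25 measured Hox genes, which hold positional identity, 2 were higher and none lower: Hoxb9 stood at 12.7 FPKM in library 2 and 3.45 in library 1 and Hoxb8 at 4.99 FPKM in library 2, against 1.69 in library 1. Hoxc10, known for its expression in subcutaneous fat, was level at 16.6 FPKM in library 2 and 15.5 in library 1.

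The immediate early genes, switched on within minutes of a stimulus, were at similar levels in both DEX libraries and, for some members, well above the PBS library. Of 24 measured members 1 was 2-fold higher in library 2, none was lower, and the median was 0.06. Fos stood at 112 FPKM in library 2 and 148 in library 1, against 3.54 FPKM in CD137+ PBS. Egr1, a zinc finger factor, stood at 104 FPKM in library 2, 149.8 in library 1 and 3.95 in CD137+ PBS. The orphan receptor gene Nr4a1 stood at 33.4 FPKM in library 2, 29.8 in library 1 and 1.17 in CD137+ PBS. The member that was higher was Ier3, a survival gene, at 105 FPKM in library 2, 43.1 in library 1 and 15.6 in CD137+ PBS. Other members were nearer to PBS. Klf4 stood at 46.5 FPKM in library 2, 82.9 in library 1 and 49.2 in CD137+ PBS. Fosl2 stood at 43.3 FPKM in library 2, 38.6 in library 1 and 29.8 in CD137+ PBS. Among the feedback inhibitors of the MAP kinases 3 of 19 were higher and 2 lower, with the ERK phosphatase gene Dusp5 at 8.61 FPKM in library 2, against 1.85 in library 1. Dusp1, which glucocorticoids also induce, stood at 60.5 FPKM in library 2 and 135 in library 1.

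For adipocyte, interferon-stimulated and acute phase genes library 1 was nearer to CD137+ PBS than library 2 was. The levels in library 2 come from another table and are comparable only approximately. Adipoq stood at 0.149 FPKM in library 2, 95.7 in library 1 and 145 in CD137+ PBS. Pparg stood at 14.2 FPKM in library 2, 56.6 in library 1 and 46.6 in CD137+ PBS. Fabp4 stood at 126 FPKM in library 2, 1389 in library 1 and 1814 in CD137+ PBS. In these adipocyte genes library 1 and PBS were within 2-fold of each other. Isg15 stood at 4.69 FPKM in library 2, 144 in library 1 and 65.9 in CD137+ PBS. Saa3 stood at 434 FPKM in library 2, 10892 in library 1 and 10919 in CD137+ PBS. Acta2 stood at 692 FPKM in library 2, 166 in library 1 and 172 in CD137+ PBS. For each of these 6 genes library 2 stood apart from both other CD137+ libraries. Ptgs2 differed among all 3, at 73.3 FPKM in library 2, 12.7 in library 1 and 1.12 in CD137+ PBS.

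**Figure D4:**
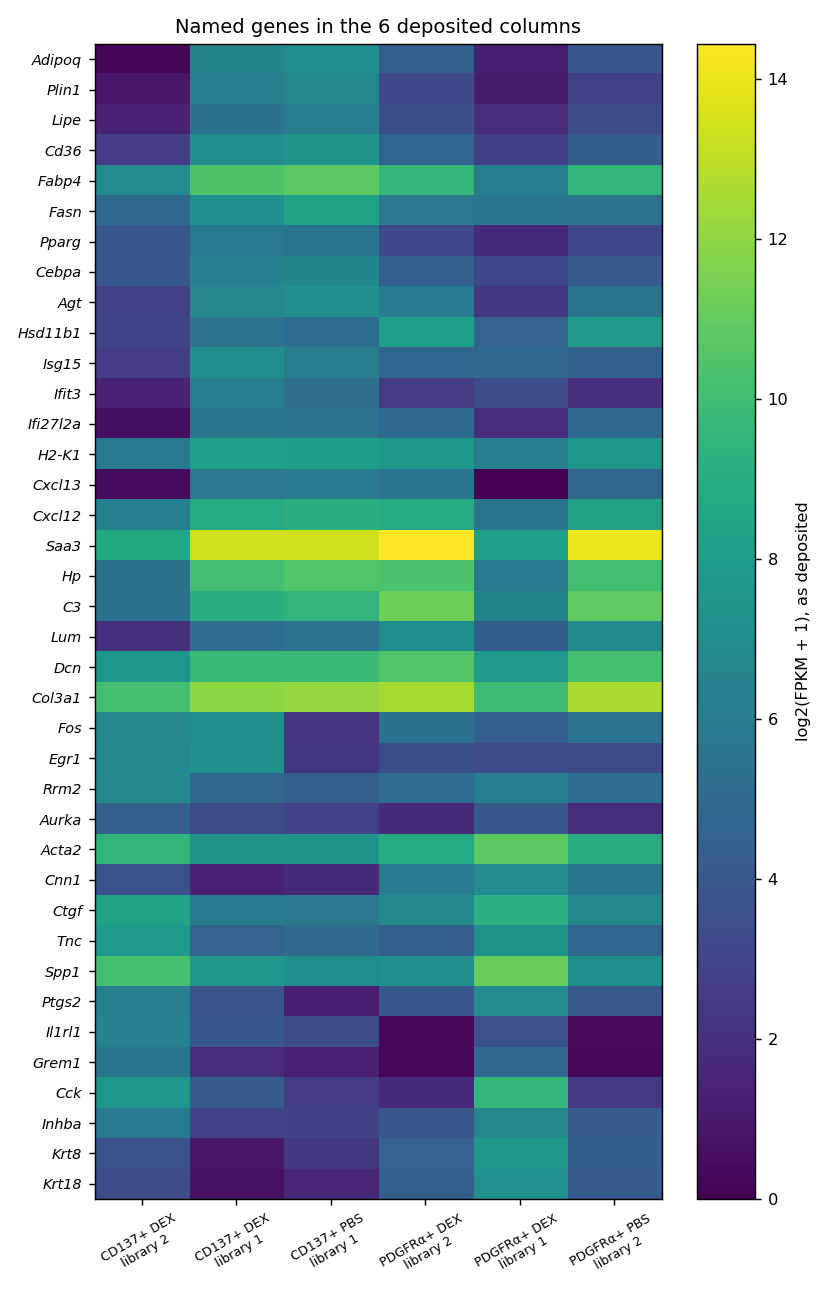
Deposited level of genes described in the text, as log2(FPKM + 1), in the 6 deposited columns; the columns come from 3 tables, whose levels are comparable only approximately. In CD137+ DEX library 2 the rows from Adipoq to Col3a1 are darker than in library 1 and those from Rrm2 to Krt18 lighter, and Fos and Egr1 are alike in both and dark in CD137+ PBS.

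The PDGFRα+ DEX label also had a library 2 and a library 1, and the same difference was formed there, library 2 minus library 1. The CD137+ and PDGFRα+ pairs share no column, but the libraries numbered 2 share a table. The numbers come from the sheet titles and are not known to mark a shared condition. The sign of the difference in each pair therefore follows the numbering only. A shift of -0.25 log2 units was removed first. Among 13019 measured genes 1440 (11.1%) were higher and 1163 (8.93%) lower in PDGFRα+ library 2. Of the genes higher in CD137+ library 2 and measured in both pairs, 248 of 390 (63.6%) were lower in PDGFRα+ library 2 and 7 were higher. The 248 are 25.2% of the 986 genes lower in that library. Of the genes lower in CD137+ library 2, 404 of 702 (57.5%) were higher in PDGFRα+ library 2 and 7 were lower, and the 404 are 32.4% of its 1246 higher genes. Over 12053 genes measured in both pairs the differences had a Pearson r of -0.637, given as a description across genes.

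The 9 lists with 50% or more of their members lower, or 50% or more higher, in CD137+ library 2 had medians of the opposite sign in the PDGFRα+ pair, though for lipogenesis (0.17) the sign there rests on the scaling. Cck stood at 2.3 FPKM in PDGFRα+ library 2 and 768 in library 1, and Adipoq at 18.9 in library 2 and 1.44 in library 1, each the reverse of the CD137+ order. Interferon-stimulated genes were less far apart there, with 14 of 64 higher in PDGFRα+ library 2, none lower and a median of 0.61, against 61 of 65 lower in CD137+ library 2. Isg15 stood at 25.6 FPKM in PDGFRα+ library 2 and 28.99 in library 1. Mitosis genes were further apart in the PDGFRα+ pair, with 34 of 38 lower in library 2, and so were ribosomal protein genes, of which 23 of 42 were higher there with a median of 1.02 while none was apart in CD137+ cells. Whether the size of these differences depends on the cell type was not tested.

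**Figure D5:**
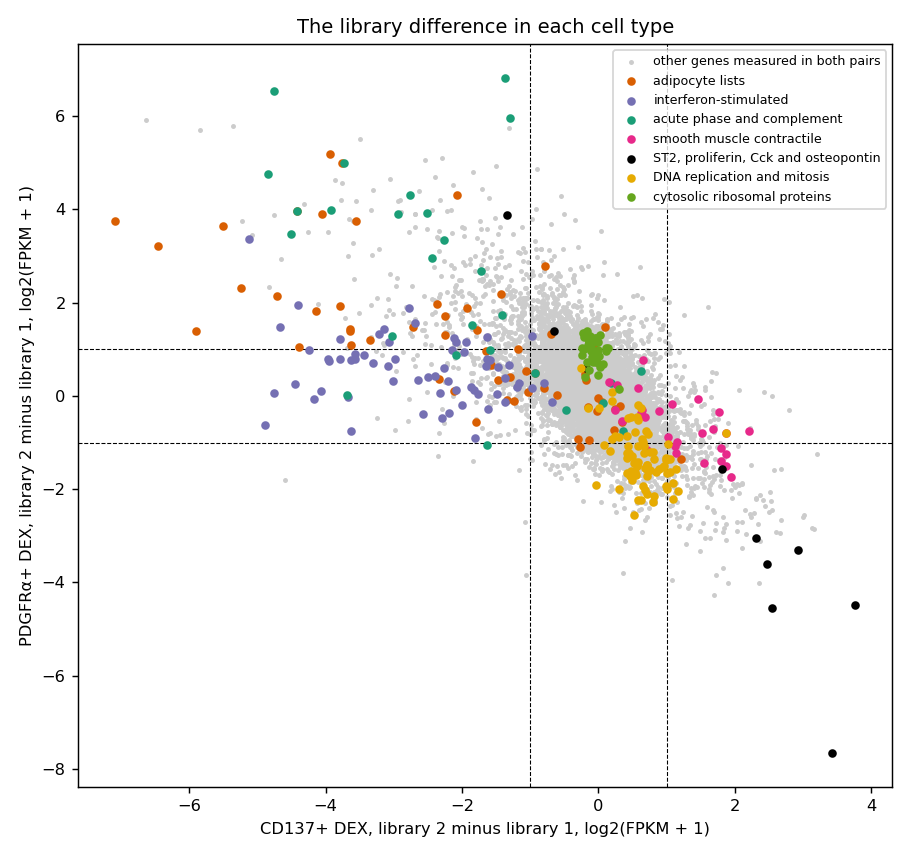
Difference between library 2 and library 1 in log2(FPKM + 1) for each gene measured in both pairs, CD137+ DEX horizontally and PDGFRα+ DEX vertically; dashed lines mark 2-fold and colours mark gene lists. Adipocyte and acute phase genes fall mostly at the upper left, the ST2 and Cck set mostly at the lower right, and interferon-stimulated genes spread to the left with smaller vertical differences.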

How the data were processed

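RNA was extracted with Trizol and made into Illumina TruSeq RNA libraries, per the labels' protocols. The authors deposited 3 tables with 6 columns of FPKM, per the file headers. The tools Cufflinks and Cuffdiff, with mm10 as the build, come from the submitters' processing notes. Their versions, an aligner and an annotation were not given in the sources used here. All 6 columns were mapped to a sample by name and 0 were left over.

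The CD137+ DEX columns were joined on gene identifier. Both were scaled so that the median log2 ratio was 0 over the 11440 genes that reached 1 FPKM in each, and compared as log2(FPKM + 1), which understates differences of low genes. A gene counted as apart at 2-fold, provided its higher level reached 1 FPKM. With 1 sample per label no test was possible. Depth is unknown, so no counting interval is given.

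The genes compared and the 56 gene lists were chosen with earlier results of these data known. Named genes were 9 fixed ones, the 12 highest and 12 lowest differences among genes (predicted ones left out) whose mean reached 5 FPKM, in each list described up to 8 members that differed most and up to 4 that differed least, and the genes next to the 2-fold bound. Marker genes such as Epcam and Ptprc, and Ifnb1, are named outside this rule, and Zbtb16, Sgk1, Mmp7, Mdfic and Epb41l2 were chosen after their values were seen. Positions are from GENCODE M21 (GRCm38, equal to mm10), which held 99.8% of identifiers. Promoter windows are RefSeq's on GRCm38.p6. The calculation was tested on simulated data. Python 3.11.15, numpy 2.4.6, pandas 2.3.3 and matplotlib 3.10.9 were used. Some genes that the rule takes are not reported here.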

Additional observations from a re-analysis of the deposited data

Results flagged for a closer look

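In 5 lists the median difference between library 2 and library 1 had opposite signs in the 2 cell types and lay at least 2-fold from 0 in each. In CD137+ DEX and in PDGFRα+ DEX cells these medians were -2.246 and 3.215 for adipocyte secreted proteins, -1.789 and 1.091 for lipid droplet and lipolysis, and -1.184 and 1.011 for fatty acid uptake. They were -2.09 in CD137+ and 2.669 in PDGFRα+ cells for acute phase and complement genes, and 2.395 in CD137+ and -3.182 in PDGFRα+ cells for the ST2, proliferin, Cck and osteopontin set. The sign in each pair follows the numbering of the sheet titles, which is not known to mark a shared condition. Opposite signs restate that CD137+ library 2 was closest to PDGFRα+ library 1 (r = 0.962) and say nothing of the cell types. The difference between the cell types was not tested, since each label gives 1 sample. Members of a list are not replicates of a condition. The adipocyte secreted list shares Lpl with the uptake list and Cfd and Lcn2 with the acute phase list.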

How the results depend on the processing

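No paired analysis was possible because each label gives 1 sample. The counts of genes at least 2-fold higher (398) and lower (751) in library 2 moved with the settings. They were 654 and 1018 with a pseudocount of 0.1 FPKM, 152 and 431 with 5 FPKM, 220 and 481 with a minimum of 10 FPKM, 1186 and 1543 at 1.5-fold, and 53 and 238 at 4-fold. Without scaling they were 470 and 668, and without genes that share a locus, a setting added after seeing the data, 347 and 574. The number of lists with 50% or more of their members higher was 2, and became 6 at 1.5-fold, 1 at 4-fold and 4 with a pseudocount of 0.1 FPKM. The number with 50% or more lower was 7, and became 13 at 1.5-fold and 3 at 4-fold. The differences of 615 genes, those the naming rule takes from all lists, were recomputed under every setting that kept them. Of these 7087 values 6693 kept their side of the bound, 233 were no longer past it and 161 were newly past it, and 0 that had been past it changed sign. Of 1270 list counts 1063 stayed within 1.5 times. Epcam and Sgk1 were not recomputed. Median differences by GC quartile ran between 0.05 and -0.055. Depth is unknown, so the precision of low genes cannot be given.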

Other observations

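A few groups outside the programs above also held wide gaps. Of 17 measured genes of the insulin-like growth factor axis 5 were lower and 2 higher in library 2. The imprinted RNA H19 stood at 38.5 FPKM in library 2 and 145 in library 1, and the binding protein gene Igfbp4 at 11.2 in library 2 and 34.4 in library 1. Igfbp7 was level at 733 FPKM in library 2 and 739.985 in library 1. Structural and nuclear RNAs had 4 of 12 members higher and 2 lower. Rn7sk, a small nuclear RNA that restrains transcription elongation, stood at 4.39 FPKM in library 2, 0.609 in library 1 and 15.01 in CD137+ PBS. The nuclear RNA Malat1 went the other way, at 234 FPKM in library 2 and 505 in library 1. Mdfic was listed only with library 2, at 40.6 FPKM, and so was the matrilysin gene Mmp7, at 15.9 FPKM. The cytoskeletal gene Epb41l2 was listed only with library 1, at 53.9 FPKM.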
